A study of Ovis aries with 4 samples.

Results

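The m6A writer genes METTL3, METTL14, METTL16, VIRMA, ZC3H13 and CBLL1 were followed through lists of m6A peaks from young and aged sheep ovary. Their peaks were taken as every deposited row with 1 of these 6 names as its gene, which gave 5 of 4378 peaks in the young list and 7 of 3656 in the aged list. The genes were 6 of 5261 with a peak in either list, and a peak in at least 1 list is given by the choice of members and is not a finding. Cele black sheep were studied in a young group, aged 1 to 2 years, and an aged group, aged 5 to 6 years, with no allele or treatment named for either. Ovarian tissue of each age gave an m6A immunoprecipitate and an untreated input, and 1 peak list per age was used here. By their labels the young sample is replicate 1 and the aged one replicate 2, and pooling of animals is not given in the sources used here.

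Messenger RNA is methylated at internal adenosines to N6-methyladenosine (m6A). The methyl group is placed during transcription by a nuclear complex whose catalytic core is a heterodimer of METTL3 and METTL14, and whose regulatory part holds WTAP, VIRMA, ZC3H13, CBLL1 and an RBM15 protein. The mark is enriched around stop codons and in 3' UTRs, and it directs splicing, translation and decay of the transcript, among others of maternal transcripts in the oocyte. METTL16 acts apart from this complex on structured RNAs, among them U6 small nuclear RNA and hairpins in the 3' UTR of MAT2A.

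A peak is a stretch of transcript with more reads in the immunoprecipitate than in the input, and the authors' own fold enrichment, p and adjusted p are given for it. Within a list the adjusted p does not always follow the order of p, so limits on it need not select the peaks of smallest p. The least fold in either list was 1.5, so weaker sites were not listed. With 1 list per age there was no replicate check, and no p-value was computed between ages. Sequencing depth is unknown and the inputs were not used here, so lack of the mark, of the transcript and of reads cannot be told apart for a gene without a peak. In bulk ovary, fewer cells of a type and less RNA per cell cannot be told apart. The lists differ in strength: young peaks had a median log10 p of -15.3 and aged peaks of -6.22, and adjusted p exceeded 0.05 for 10 young and 120 aged peaks. Of 18 marker genes of granulosa, theca and luteal cells, oocytes and stroma, 11 had a peak. Beside this, 24.5% of all protein-coding genes had one, expressed in ovary or not. FSHR, INHBB and COL1A1 had peaks at both ages, INHBA, CYP17A1, STAR, FIGLA, DPT and NR2F2 were young-only, and NOBOX and PDGFRA were aged-only. CYP17A1 and STAR, the theca and luteal markers with a peak, were both young-only, as were 41.3% of all genes with a peak in either list. Aged-only genes made up 26.9% and genes in both lists 31.8%. The marker counts are too small to be set apart from these shares, and the part of cell content in the results was not tested. The marker CYP19A1 was not found by symbol in the gene table.

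The gene ontology terms in the deposited files set METTL16 apart. The term for the RNA N6-methyladenosine methyltransferase complex was attached to 5 of the 6 genes and not to METTL16. No other gene with a peak carried it, so all 5 genes with that term were members. Since the members are the writers with a peak, this follows from the choice and is no result. All 6 carried the term for mRNA methylation, which 8 genes with a peak had in all. The others were TRMT10C and METTL8, named here after their values were seen. The members are therefore called writer genes here, and the complex is meant to exclude METTL16.

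The writer genes were spread evenly over the lists. METTL14 and CBLL1 had peaks at both ages, METTL3 and VIRMA were young-only, and METTL16 and ZC3H13 were aged-only. The background over all 5261 genes was 41.3% (Wilson 95% interval 40.0 to 42.7) young-only, 26.9% (25.7 to 28.1) aged-only and 31.8% (30.5 to 33.0) in both. These intervals cover counting error only. With 2 of 6 members in each class, the counts are too small to be set apart from those shares. Both aged-only writer genes lie on the minus strand and both young-only ones on the plus strand. Over all genes, 51.3% of the aged-only and 45.9% of the young-only genes were on the minus strand.

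**Figure D1:**
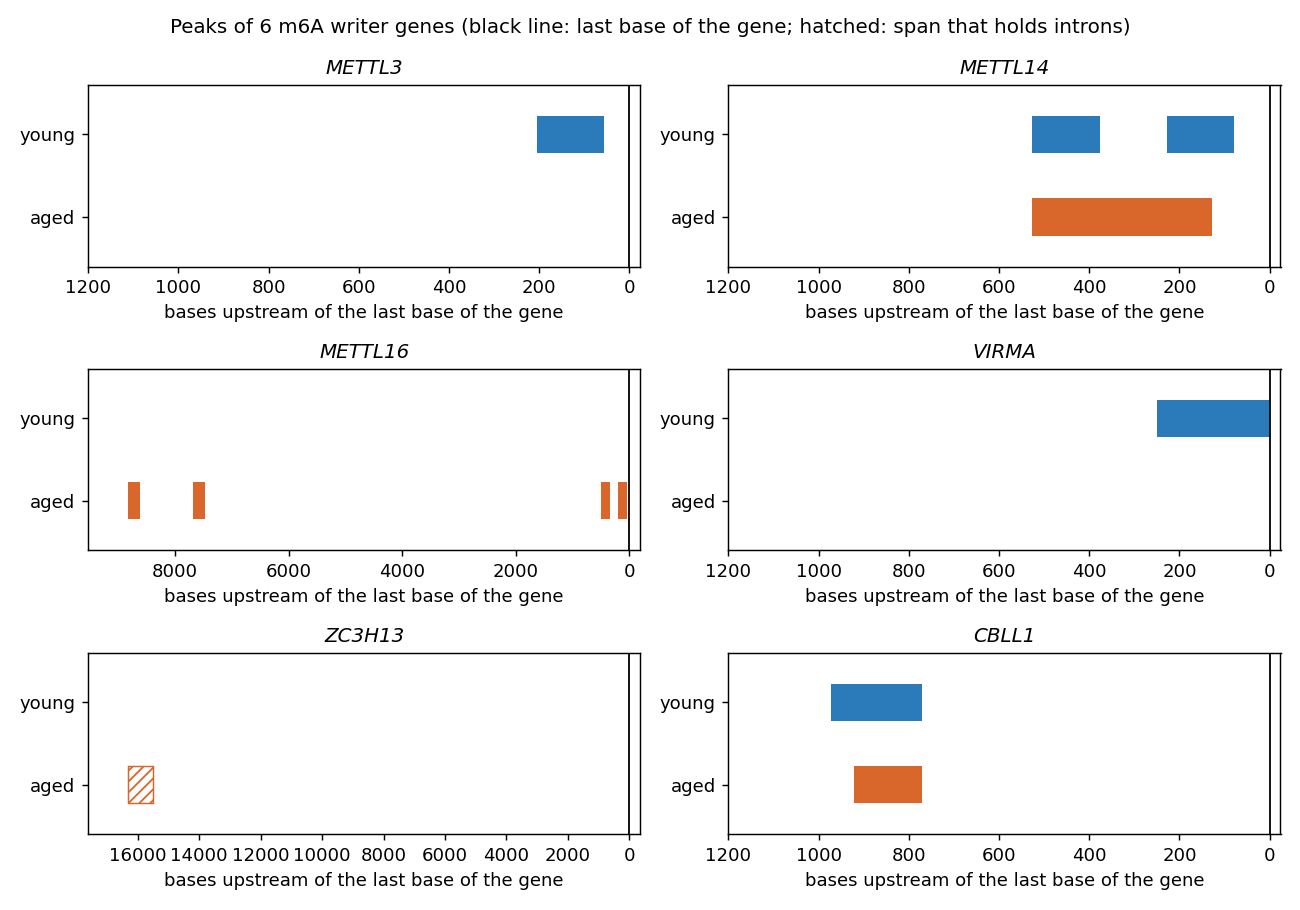
Position of every writer gene peak, as bases upstream of the last base of its gene, with young peaks in the upper and aged peaks in the lower row of each panel. Bars are drawn to scale from peak start to end, the hatched ZC3H13 bar holds introns, and the axes differ between panels. All 5 young peaks lie within 1000 bases of the gene end, and 3 of 7 aged peaks lie farther upstream.

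METTL3 encodes the catalytic subunit that transfers the methyl group. Its single peak was young, on chromosome 7 (24025755 to 24025902, plus strand), labelled 3' UTR and 148 bases wide. The authors gave it a fold of 1.83, a log10 p of -17.9 and an adjusted p of 3.16e-18. Only 30.6% of young peaks had a lower fold, so this was a modest enrichment within its list, although 61.6% had a weaker p. It was also narrow, since 3.54% of young peaks were narrower. The peak stopped 56 bases before the last base of the gene; the gene table gives it 1 RefSeq transcript. TOX4 is the next gene beyond that end, and no peak was listed for it in either list. The aged list held no METTL3 peak.

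METTL14, the partner that holds the RNA for METTL3 without catalysing transfer itself, had 2 young peaks and 1 aged peak on chromosome 6, all labelled 3' UTR on the minus strand. The young peaks ran from 7020243 to 7020392 and from 7020542 to 7020692, with 149 bases between them. The aged peak ran from 7020293 to 7020692. It was 400 bases wide, wider than 88.4% of aged peaks, and it bridged the gap between the young ones. It covered 100 of 150 bases of the peak nearer the gene end and all 151 bases of the other, and it shared the upstream boundary of the latter to the base. Of 1499 aged peaks that overlapped a young peak, 30 (2.00%) overlapped at least 2.

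By fold, METTL14 was middling in the young list and above the middle in the aged list, and by p it was above the middle in both. Both young peaks had a fold of 2.00, a log10 p of -18.4 and an adjusted p of 2e-17. The aged peak had a fold of 2.07, a log10 p of -9.46 and an adjusted p of 4.79e-09. Lower folds were given to 41.7% of young and 64.9% of aged peaks, each within its own list. A weaker p was given to 63.7% of young and 79.5% of aged peaks. The 2 young peaks carried identical values in all 3 columns. Among 466 young genes with several peaks, 96 (20.6%) had peaks of equal log10 p, but METTL14 was the only gene whose peaks also had equal adjusted p and fold. When peaks within 200 bases of each other were merged, METTL14 had 1 peak in each list.

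CBLL1 encodes Hakai, a RING-type ubiquitin ligase that is also a stabilising subunit of the writer complex. Its peak was labelled stop codon in both lists, on chromosome 4, plus strand. The young peak ran from 50290095 to 50290295 and the aged peak from 50290145 to 50290295. Their downstream boundaries were identical and the aged peak began 50 bases later, so it lay within the young one and took up 75.1% of it. At least 1 identical boundary was found in 47.5% of the 1530 overlapping pairs of the lists. Starts and ends that each differed by a multiple of 50 bases, to within 1 base, were found in 67.9% of pairs, so steps of this size are common in these files.

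CBLL1 had the smallest p of the writer genes in each list. The young peak had a fold of 2.94, a log10 p of -33.9 and an adjusted p of 1.26e-33. The aged peak had a fold of 2.66, a log10 p of -18.4 and an adjusted p of 3.16e-17. Within the lists, 90.2% of young and 96.3% of aged peaks had a weaker p. Although labelled stop codon, the CBLL1 peaks ended 771 bases before the last base of the gene, unlike the VIRMA peak of the same label. CBLL1 has 4 RefSeq transcripts in the gene table, and which of them the label refers to is not given in the files.

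VIRMA encodes the large scaffold that joins the regulatory subunits and is known to guide methylation towards 3' UTRs and stop codons. Its single peak was young, on chromosome 9 (82754358 to 82754606, plus strand), labelled stop codon and 249 bases wide. It had a fold of 2.56, a log10 p of -24.0 and an adjusted p of 5.01e-24. In the young list 76.2% of peaks had a lower fold and 78.9% a weaker p. Its last base was the last base of the gene, as for 29.4% of young and 9.10% of aged peaks. It thus lay at the very end of the gene, as its label alone would not show. No VIRMA peak was in the aged list.

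**Figure D2:**
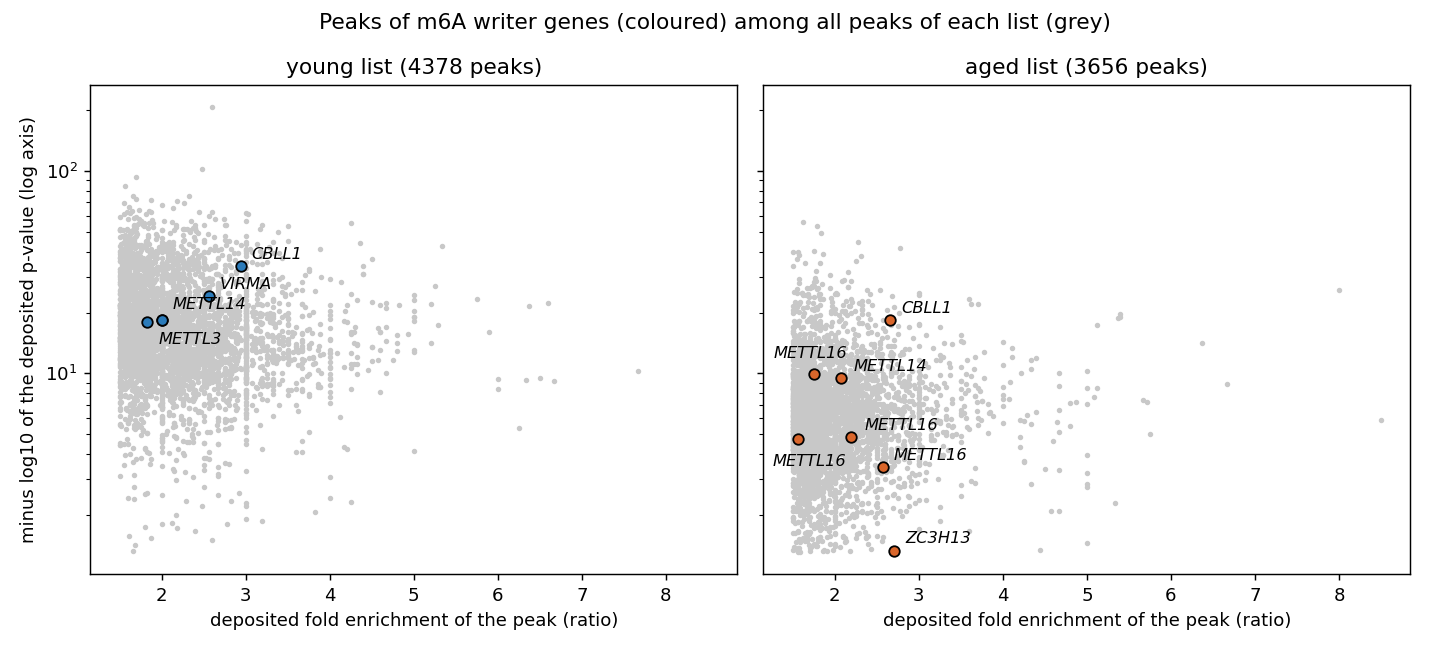
Deposited fold enrichment (horizontal axis) against minus log10 of the deposited p-value (vertical log axis) for all peaks of the young list (left) and the aged list (right) in grey, with the writer gene peaks coloured and named. The 2 METTL14 peaks of the young list fall on 1 point, CBLL1 is the uppermost writer gene in both panels, and ZC3H13 lies at the lower edge of the aged list with a log10 p of -1.33.

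ZC3H13 encodes a zinc finger protein that keeps the regulatory subunits in the nucleus. Its single peak was aged, on chromosome 10 (16423908 to 16424695, minus strand), and labelled exon. Its fold of 2.71 was the highest of the aged writer gene peaks, and 89.8% of aged peaks had a lower fold. Its significance was the lowest, with a log10 p of -1.33 and an adjusted p of 0.545, and only 0.137% of aged peaks had a weaker p. The span of 788 bases held 151 bases of peak and 637 bases of intron, and it was the only writer gene peak to cross an intron. Introns were crossed by 22.5% of aged peaks. The peak lay 15515 bases of genomic distance from the gene end. With adjusted p at most 0.05 this peak is lost, which leaves METTL16 as the only aged-only writer gene.

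METTL16 had the most peaks, 4 in the aged list and none in the young list. All 4 lie on chromosome 11, minus strand, within 8774 bases. The peak nearest the gene end (23263503 to 23263652, 3' UTR) had a fold of 2.57, a log10 p of -3.44 and an adjusted p of 0.00537. The next (23263802 to 23263951, 3' UTR) followed after 149 bases and had a fold of 1.56, a log10 p of -4.73 and an adjusted p of 7.76e-05. These are the terminal pair, 50 and 349 bases from the last base of the gene.

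The other METTL16 peaks form an upstream pair, separated from the terminal pair by 6978 bases. The first of these (23270930 to 23271129) was labelled 3' UTR. It had a fold of 1.75, a log10 p of -9.94 and an adjusted p of 1.78e-09, the smallest p of the gene. The most upstream peak (23272076 to 23272276) was labelled exon. It had a fold of 2.20, a log10 p of -4.85 and an adjusted p of 0.000288. Fold and p ranked the METTL16 peaks in different orders: the terminal peak with the highest fold had the weakest p, whereas 82.4% of aged peaks had a weaker p than the peak at 23270930. For the other METTL16 peaks this share was 14.7%, 30.1% and 31.6%, from the gene end upstream. All 4 METTL16 peaks had an adjusted p below 0.01, a limit met by 3373 of the 3656 aged peaks. After merging within 200 bases 3 METTL16 peaks remained. With folds of at least 2.00 the count was 2, the terminal peak of fold 2.57 and the upstream peak of fold 2.20. Both regions thus carried peaks under each limit on adjusted p or fold that was tried.

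Few genes shared the METTL16 counts in the 2 lists. METTL16 was singled out here as the member with the most peaks, so this rarity is in part given by that choice. The count also depends on how close peaks are split. Of neighbouring aged peaks of 1 gene, 24.6% lay at most 200 bases apart, as the terminal pair did. Of 3086 genes in the aged list, 17 (0.551%) had 4 or more peaks. Of the 1415 aged-only genes, 3 (0.212%) had 4 peaks and none had more. By equality of counts over the lists, the genes like METTL16 were EIF3A, a core subunit gene of the translation initiation factor eIF3, and SMC1A, a cohesin subunit gene on the X chromosome. All 4 EIF3A peaks were labelled exon, and their adjusted p ran from 0.0537 to 0.389, above the limit of 0.05 that all METTL16 peaks met. The 4 SMC1A peaks were labelled 3' UTR, with folds of 1.58 to 2.18 and a weakest adjusted p of 7.41e-05. The METTL16 gene spans 68415 bases, against a median of 31711 for genes of the aged list. For the other members the same counts were common, from 171 genes for METTL14 to 2007 for METTL3 and VIRMA.

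**Figure D3:**
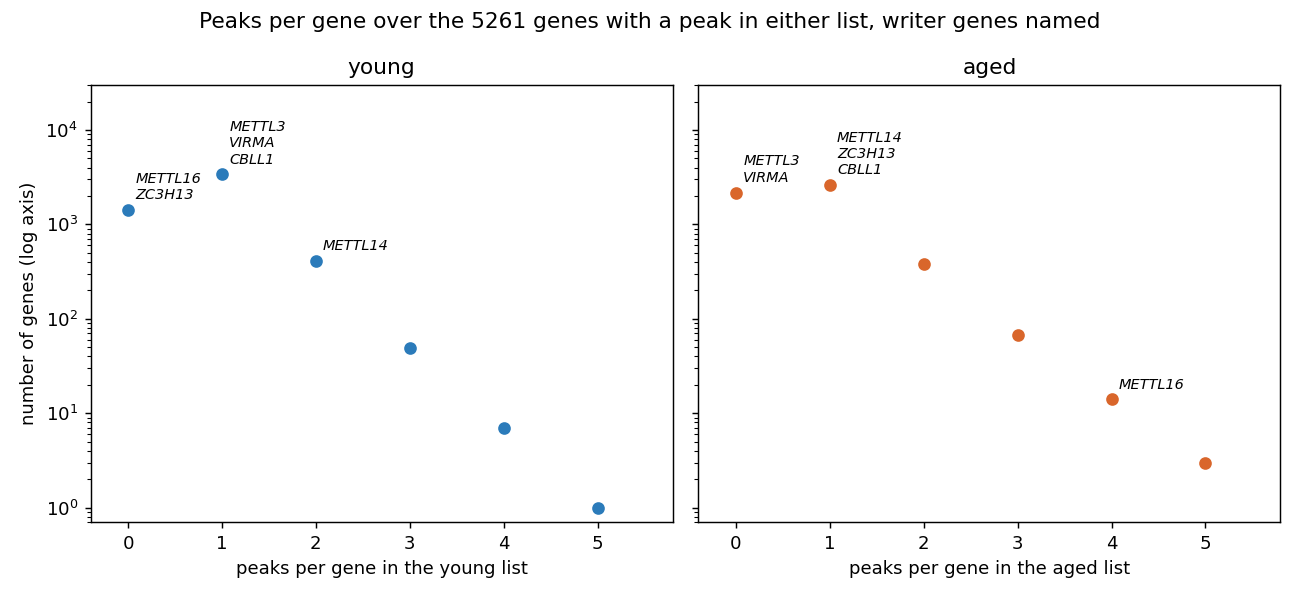
Number of genes (vertical log axis) with each number of peaks (horizontal axis) in the young list (left) and the aged list (right), over the 5261 genes with a peak in either list, with the writer genes named at their counts. METTL16 is 1 of the 17 genes with 4 or 5 aged peaks and lies at 0 in the young panel.

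The upstream pair of METTL16 and the ZC3H13 peak lay farther from the gene end than the other writer gene peaks. The terminal pair of METTL16, at 50 and 349 bases, did not. The young peaks lay 0 to 771 bases from the gene end (median 78), and the aged ones 50 to 15515 bases (median 771). Over all peaks within their genes the medians were 333 and 696 bases, and 62.3% of young and 55.6% of aged peaks lay within 1000 bases. Of the 7 aged writer gene peaks, 4 lay within that limit, near the share over all aged peaks. The 3 beyond it belonged to METTL16 and ZC3H13, which had no young peak, so they show no shift within a gene. All 3 lay 5000 bases or more from the gene end, as did 17.0% of aged peaks within their genes. The ZC3H13 peak among them had an adjusted p of 0.545 from the authors. In METTL14 and CBLL1, the genes with peaks at both ages, each aged peak overlapped its young counterpart and bore the same label. In genes with peaks in both lists, 74.2% of young and 72.2% of aged peaks overlapped the other list.

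Labels were 3' UTR for 3 young and 4 aged writer gene peaks, stop codon for 2 young and 1 aged, and exon for 0 young and 2 aged. In the whole lists, 3' UTR labels made up 47.3% of young and 66.4% of aged peaks, and exon labels 9.30% and 15.3%. Stop codon labels made up 41.3% of young and 15.3% of aged peaks. By strand they made up 43.1% of young plus-strand and 39.0% of young minus-strand peaks. In the aged list they made up 27.5% of plus-strand but only 2.58% of minus-strand peaks. Of the 7 aged writer gene peaks, 6 are on the minus strand, and the aged METTL16 peak 50 bases from the gene end bore the 3' UTR label. The part of this strand difference in the labels was not tested. Widths had a median of 151 bases in both lists, against 195 and 201 over all peaks. They ran from 148 to 249 bases in the young list and from 150 to 400 in the aged list, where METTL14 alone exceeded 201.

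None of the 12 writer gene peaks overlapped a peak of another gene on either strand. Median folds were 2.00 over the 5 young and 2.20 over the 7 aged peaks, beside 2.05 and 1.88 over the whole lists. Median log10 p was -18.4 and -4.85, beside -15.3 and -6.22. Both young medians are the values of the METTL14 peaks, and both aged medians are those of the METTL16 exon peak. METTL16 gave 4 of the 7 aged peaks, so the medians are not read as a trait of the writer genes. Single peaks stood apart from these medians: the share of the list with a weaker p ran from 61.6% to 90.2% over the young peaks and from 0.137% to 96.3% over the aged ones.

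Other genes of the pathway were drawn from 4 lists with 30 genes. A peak was found for 9 of them, none in the first list, whose 8 genes lack one by the choice of members. The count of 9 of 30 is therefore not read against a background. Of the 21300 protein-coding genes in the gene table, 24.5% had a peak in either list, expressed in ovary or not. Each of the other lists is too small to be set apart from that share. The first list held 8 further writers without a peak: WTAP, which anchors METTL3 and METTL14 in nuclear speckles, RBM15 and RBM15B, which bind RNA for the complex, METTL5 and its activator TRMT112, ZCCHC4, PCIF1 and METTL4. Since the 6 members are the writers with a peak, that these have none follows from the choice and is no result.

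In the list for supply and use of S-adenosylmethionine, the methyl donor, 4 of 6 genes had peaks, beside 24.5% of all protein-coding genes. The list includes AHCYL1 and AHCYL2 only as relatives of AHCY. MAT2A, which makes the donor, had a peak labelled 3' UTR in both lists on chromosome 3. The young peak (57388117 to 57388414) had a fold of 1.51 and a log10 p of -11.9. The aged peak (57387968 to 57388414) had a fold of 1.53 and a log10 p of -9.27, and it contained the young one, with the same downstream boundary. MAT2A RNA is a known substrate of METTL16. The aged METTL16 peaks lie on the METTL16 transcript itself and do not measure its protein or activity. Whether the MAT2A peaks lie at the hairpins was not tested. AHCY, which clears the inhibitory by-product of methylation, was young-only with a fold of 2.00, and its relative AHCYL2 was young-only with 1.78. AHCYL1 had overlapping stop codon peaks in both lists, with folds of 1.90 and 2.56.

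Of 10 partners of U6 small nuclear RNA, LARP7 alone had a peak, again beside 24.5% of all protein-coding genes. LARP7 binds the related 7SK RNA and guides modification of U6. Its peaks, labelled exon, overlapped between the lists, with folds of 2.40 and 2.00. None of the LSM ring genes had a peak.

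Of 6 genes for factors that recruit the writer to chromatin or to nascent RNA, 4 had a peak, against the same share of 24.5%. SETD2, which lays down the histone mark that METTL14 reads, was aged-only with folds of 1.95 and 1.52. SMAD3, which brings the writer to transcripts of activin targets, was aged-only with 1.64 and 1.5. Its partner SMAD2 had a young peak with a fold of 3.50 inside the span of an aged peak with 1.55, and a further aged peak labelled exon. CEBPZ, which tethers METTL3 to promoters, had a peak with identical boundaries in both lists (86876221 to 86877161 on chromosome 3, 3' UTR), with folds of 1.83 and 1.52, and a further aged peak labelled exon. Over the 4 lists, to which the further writers could add no gene, 2 genes were young-only, 2 aged-only and 5 in both. These counts are too small to be read against the shares over all genes.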

How the data were processed

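Trizol-extracted total RNA was made into stranded libraries and sequenced on an Illumina NovaSeq, per the labels' protocols. ChIPseeker and DESeq2 appear without a role in the submitters' processing notes; aligner, peak caller and build: not given in the sources used here. Per the file headers, the authors give each peak a fold enrichment over input, which is a linear ratio, and a p-value with its adjusted p-value. The authors' log10 columns were handled as a score. Depth per sample is unknown.

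Coordinates count from 1, for which 1 was added to each deposited start. Peaks of equal strand matched when they shared at least 1 base. A gene table of assembly ARS-UI_Ramb_v3.0, matched by gene ID for 99.5% of peaks in each list, gave chromosome numbers, gene lengths and distances to gene ends. The files' build is not named, so its coordinates are not printed, and its ends were used because 1280 young and 331 aged peaks end there to the base. Exons, genome and protein sequences were not used here.

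No test was made between ages. The 6 members, the pathway lists and the rules were chosen with earlier results of these data known. Named were all members, list genes with a peak, and genes with a member's exact counts where 5 or fewer. Overlap and merging code was tested on simulated data. Scripts ran in Python 3.11.15 with numpy 2.4.6, pandas 2.3.3, matplotlib 3.10.9 and scipy 1.17.1.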

Additional observations from a re-analysis of the deposited data

How the results depend on the processing

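Equal list lengths, merging within 100 bases and overlap on either strand changed none of the results they were applied to. The other alternatives moved some counts and medians. With folds of at least the median over both lists (2.00), METTL3 lost its peak, so 1 member was young-only. This left 4 young and 5 aged peaks, with median folds of 2.28 (young) and 2.57 (aged). With an adjusted p of at most 0.01, or of at most 0.05 (added after seeing the data), ZC3H13 was lost. Either limit left 1 aged-only member, 6 aged peaks and an aged median fold of 2.135. Without stop codon labels VIRMA and CBLL1 were lost, which left 1 young-only member and 1 member in both lists. There were then 3 young peaks, 6 aged peaks, 3 overlapping peaks and an aged median fold of 2.135. When 50% of both peaks had to overlap, 2 peaks, the CBLL1 pair, overlapped, against 5. Merging within 200 bases (added after seeing the data) gave 4 young peaks, 6 aged peaks, 4 overlapping peaks and median folds of 2.28 and 2.385. By genomic span the aged median width was 200.0 bases. METTL14 stayed in both lists and METTL16 aged-only under all of these. However, METTL16 had 2 peaks, not 4, with folds of at least 2.00, and 3 after merging within 200 bases. Overlap of exon blocks was not run, since the files give no block positions. No paired analysis was possible because each age has 1 list and the ages share no replicate number.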

Other observations

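The deposited text writes its labels in 2 number formats. All 1806 young and 561 aged stop codon rows, and all start codon rows, give the p-value with at most 7 digits, as the VIRMA and CBLL1 rows do. Of 3' UTR rows, 8.93% (young) and 2.39% (aged) do so. Only start and stop codon rows were padded with blanks.

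Peaks of 1 gene with equal log10 p were found in 188 of 465 aged genes with several peaks (40.4%), against 96 of 466 young ones. The 4 METTL16 peaks had 4 different p-values. Equal p, adjusted p and fold, as in the young METTL14 peaks, occurred in 4 aged genes, IGF2, MYH9, PGBD1 and XPA, named after their values were seen.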
